A study of Mus musculus with 8 samples.

Results

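Transcripts of 31 genes for sugar breakdown and storage were followed in sorted mouse neutrophils that carry or lack ATF3. The genes encode enzymes and transporters of glycolysis, the pentose phosphate pathway and glycogen metabolism, and a probe was taken as belonging to one of them when its RefSeq transcript, without its version, is listed for that gene (Pkm is also called Pkm2). All 31 genes had at least 1 such probe, with 49 probes in all among 55681 on the array. Of the 31 genes, 20 had 1 probe and 11 had more than 1. A probe was tested if its signal exceeded background on 4 or more of the 8 arrays, in whichever group. Of the 49 probes 48 met this, all of them above background on all 8 arrays, and all 31 genes were among the 21251 genes tested.

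Glycolysis splits glucose into pyruvate and lactate and yields ATP without mitochondria, on which neutrophils rely little. The pentose phosphate pathway branches off after glucose is phosphorylated and makes NADPH, the fuel of the oxidase with which neutrophils kill microbes, and its later enzymes return sugar phosphates to glycolysis. Neutrophils also hold glycogen, built by glycogen synthase and branching enzyme and released by phosphorylase, as a reserve for work in tissue poor in glucose.

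RNA came from the Ly6G-positive fraction of bone marrow, sorted with magnetic beads, of mice with ATF3 (wild type, WT) or without this transcription factor (ATF3 KO), all of C57BL/6 background, with 4 arrays per genotype and 1 sample on each single-colour array. The work concerns neutrophil migration, per the series title. RNA was taken straight after the sort according to the design text, but the description field of 7 of the 8 samples, WT replicate 1 being the exception, mentions 1 week in methylcellulose with a compound written as 4-OHT, and the labels do not settle this. The labels do not say how the ATF3 allele was made, and neither age, sex nor the number of animals behind a sample is given, so p-values measure the spread between these samples, which may be technical. By the array positions, each genotype filled its own row of a single slide, and a row effect cannot be told apart from one of genotype.

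Each array was scaled to its own 75th percentile of processed signal, which ran from 151 to 216 on WT arrays and from 113 to 161 on ATF3 KO arrays, lowest in ATF3 KO replicate 4, while 46.4 to 55.3% and 46.0 to 53.2% of probes were above background. Below, a level is the log2 signal of a probe minus that percentile, so 0 is the 75th percentile. The 1 probe of Atf3 was higher in the arrays labelled ATF3 KO, at 1.24 ± 0.27 against 0.73 ± 0.07 (SD, n = 4; difference 0.51, SE 0.14, limma adjusted p = 0.121). Whether it lies in the deleted part is not known here, so it does not check the genotype labels. Of 13 neutrophil markers 12 had a probe (Ly6g was not matched), all tested, 5 of them higher in ATF3 KO at an unadjusted p under 0.05, with a summed linear signal of 9357 to 11836 times the percentile in WT and 11415 to 13834 in ATF3 KO. Of 10 B-lineage markers, all measured, 8 were higher in ATF3 KO at that level and none was called, and their sum was 44.3 to 66.5 in WT and 92.4 to 103 in ATF3 KO. The sums were 161 to 184 and 129 to 170 for 6 of 8 monocyte and macrophage markers, 22.9 to 34.9 and 25.2 to 67.4 for 6 of 6 megakaryocyte markers, 3190 to 3886 and 3467 to 4644 for 7 of 7 erythroid markers, and 7.8 to 8.5 and 6.78 to 9.47 for 5 of 6 T and NK markers, of which Klrb1c was above background on no array. In such sorted bulk samples, fewer cells of a type and less RNA per cell cannot be told apart. The part of these cells in the values below was not tested.

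ATF3 is a member of the ATF/CREB family, whose sites carry the letters TGACGTCA, and the hypoxia-inducible factor, a general driver of glycolysis genes, binds sites with the core ACGTG. The promoter windows of 4 members are shown because 2 of them (Gys1 and Pgam1) had ATF3 KO and WT arrays that did not overlap, Ldha was the 1 member with the full ATF/CREB letters, and Pgk1 held ACGTG at 2 places, as did windows of Hk2 and Slc16a3, not shown. Each runs 5′ to 3′ over the 250 bases before a RefSeq start of the gene, taken from RefSeq. Capitals mark TGACG or ACGTG on either strand, and overlapping matches are each counted.
Gys1, GRCm38.p6 chr7:45434589-45434838, plus strand: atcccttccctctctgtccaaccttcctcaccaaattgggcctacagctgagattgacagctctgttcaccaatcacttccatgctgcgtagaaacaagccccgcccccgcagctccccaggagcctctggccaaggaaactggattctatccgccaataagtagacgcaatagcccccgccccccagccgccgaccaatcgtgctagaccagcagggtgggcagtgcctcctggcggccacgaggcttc
Pgam1, GRCm38.p6 chr19:41911621-41911870, plus strand: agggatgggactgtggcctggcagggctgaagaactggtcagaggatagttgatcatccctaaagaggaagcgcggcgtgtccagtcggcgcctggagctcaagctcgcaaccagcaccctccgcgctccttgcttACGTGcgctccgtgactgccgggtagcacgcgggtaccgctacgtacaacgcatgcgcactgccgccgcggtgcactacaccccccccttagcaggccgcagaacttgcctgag
Ldha, GRCm38.p6 chr7:46845554-46845803, plus strand: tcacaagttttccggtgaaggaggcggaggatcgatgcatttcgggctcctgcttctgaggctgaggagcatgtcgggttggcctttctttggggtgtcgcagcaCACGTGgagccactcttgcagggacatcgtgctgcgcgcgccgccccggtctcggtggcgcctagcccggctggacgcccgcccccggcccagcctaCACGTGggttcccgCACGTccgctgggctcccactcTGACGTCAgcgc
Pgk1, GRCm38.p6 chrX:106186850-106187099, plus strand: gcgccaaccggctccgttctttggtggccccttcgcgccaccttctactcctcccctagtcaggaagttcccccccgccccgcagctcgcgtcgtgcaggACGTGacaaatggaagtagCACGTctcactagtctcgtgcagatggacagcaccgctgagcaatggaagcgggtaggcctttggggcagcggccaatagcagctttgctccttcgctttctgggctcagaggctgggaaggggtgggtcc
The Ldha window shown held TGACGTCA starting 12 bases before its RefSeq start, and this palindrome carries TGACG on both strands. It also held ACGTG 5 times, counting both strands, of which 4 lie in a pair of CACGTG palindromes. The other window of Ldha held TGACG once, 143 bases before its start, and neither TGACGTCA nor ACGTG. The Pgam1 window had ACGTG once, 114 bases before the start, and the Gys1 window had none of the 3 motifs. Over the 43 windows matched to 30 of the 31 genes (Slc2a3 was not matched), TGACGTCA was found in 1 window (2.33%, against 1.55% of all 32851 windows of this length), TGACG in 10 windows of 8 genes (23.3% against 17.8%) and ACGTG in 16 windows of 13 genes (37.2% against 16.6%). Windows of 1 gene can overlap, and a match describes letters in a window only.

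None of the 31 genes differed between ATF3 KO and WT at limma's threshold of an adjusted p under 0.05, which 0.447% of the 21251 genes passed. The adjusted p of the members ran from 0.188 for Gys1 to 0.854 for Slc16a3. At an unadjusted p under 0.05, 3 of the 31 were lower in ATF3 KO (Gys1, Pgam1 and Pgd), where 14.5% of all genes were, and 0 were higher, where 9.38% were. The 4 ATF3 KO values all lay below the 4 WT values for 2 members, Gys1 and Pgam1, against 10.9% of all genes, and all above for 0, against 4.13%. With the reported settings, each of these counts was a smaller share of the 31 members than the same count was of all genes. For the counts of lower members that order reversed in other settings. Among these were normexp, the deposited table and the fit without ATF3 KO replicate 3, with counts given in the last section.

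The differences were small as well as uncalled. They ran from −0.51 for Pgd to 0.08 for Taldo1 on the log2 scale, with a median of −0.15, where the median of all genes was −0.11, which puts the members at −0.05 relative to all genes. Of the 31 differences 27 were below 0, as were 65.5% of those of all genes, and 21 were below the median of all genes. With the reported settings the 95% intervals of all 31 genes lay inside a change of 2-fold in either direction, the lowest bound being −0.998 (Pgd) and the highest 0.34 (Pfkm), and for 21 genes the interval lay within 0.5 of 0. For Pgd this was by a narrow margin. Its difference ran from −0.70 with normexp to −0.31 without ATF3 KO replicate 1, and intervals in other settings are not given here. The direction itself depended on the scaling, which shifts all genes together: with the percentile taken over probes above background on all arrays the median of all genes was 0.04, an upward shift of 0.15, and 16 members were below 0 and 15 above. Normexp background correction, by contrast, put all 31 below 0, with all genes at −0.05.

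**Figure D1:**
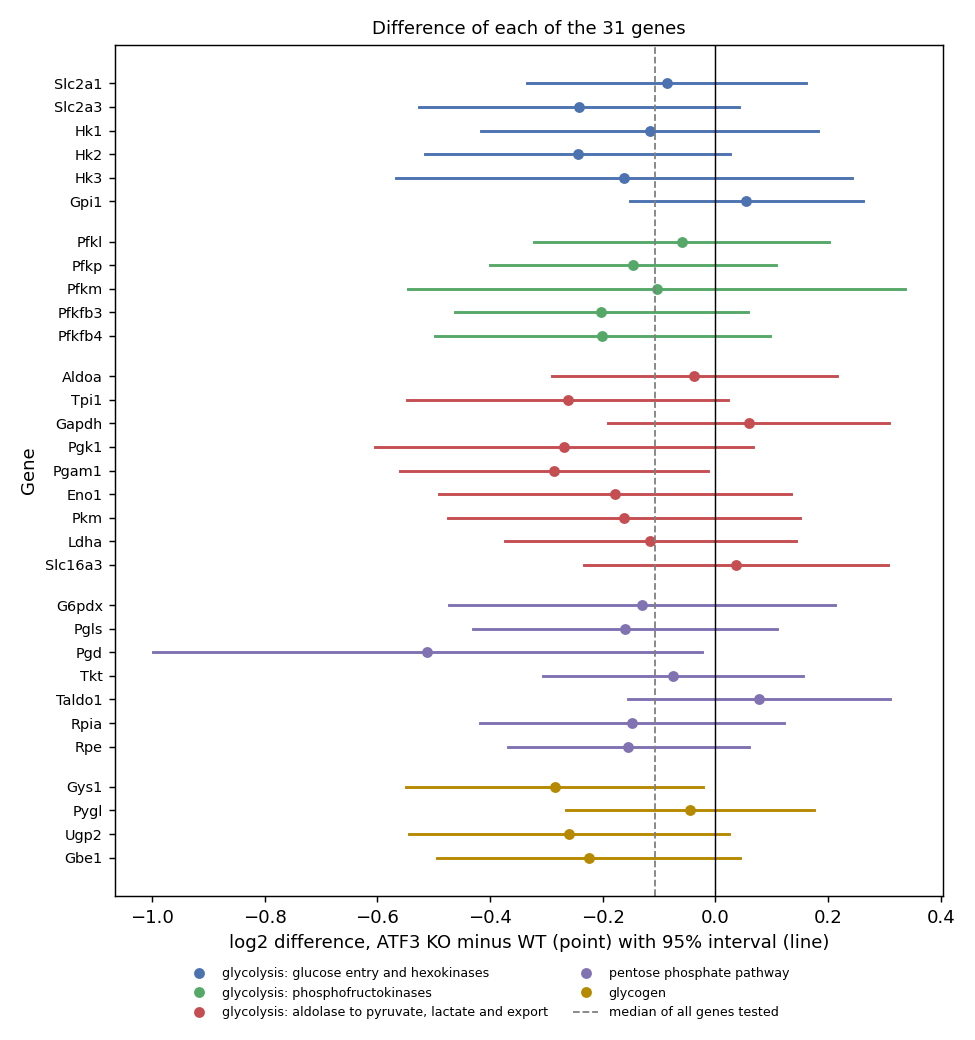
Log2 difference, ATF3 KO minus WT, of each of the 31 genes (points) with its 95% interval (lines), coloured by role. The dashed line is the median of all genes, −0.11, and the intervals of all genes but Gys1, Pgam1 and Pgd include 0.

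Glucose enters neutrophils through facilitative transporters and is trapped by hexokinases, and all 6 genes of this step were above background on every array without passing the test. The median difference of the 6 was −0.14, from −0.24 (Hk2) to 0.05 (Gpi1), with adjusted p from 0.236 to 0.704. Signals of different probes depend on the probe as well as on the transcript, so the levels below are not ranked between genes.

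Slc2a1, the transporter GLUT1, had levels of 2.84, 2.99, 2.85 and 2.89 in WT replicates 1 to 4 and 2.79, 2.72, 3.06 and 2.66 in ATF3 KO replicates 1 to 4. ATF3 KO replicate 3 was above every WT array and the other ATF3 KO arrays were below all of them, and the difference was −0.09 (SE 0.11, 95% interval −0.33 to 0.16, limma adjusted p = 0.612). Slc2a3, the high-affinity transporter GLUT3, had levels of 7.40, 7.57, 7.35 and 7.46 in WT replicates 1 to 4 and 7.31, 7.26, 7.37 and 6.88 in ATF3 KO replicates 1 to 4. The groups overlapped, ATF3 KO replicate 4 was the lowest array, at 6.88 against at least 7.26 elsewhere, and the difference was −0.24 (SE 0.13, 95% interval −0.53 to 0.04, limma adjusted p = 0.257).

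Hk1, the hexokinase of most tissues, had levels of 5.77, 5.78, 5.56 and 5.54 in WT replicates 1 to 4 and 5.59, 5.54, 5.81 and 5.25 in ATF3 KO replicates 1 to 4. The groups overlapped, with ATF3 KO replicate 3 the highest array and replicate 4 the lowest, and the difference was −0.12 (SE 0.13, 95% interval −0.42 to 0.18, limma adjusted p = 0.57). Hk2, the inducible hexokinase, had levels of 3.67, 3.74, 3.47 and 3.49 in WT replicates 1 to 4 and 3.30, 3.28, 3.61 and 3.19 in ATF3 KO replicates 1 to 4. Apart from ATF3 KO replicate 3, at 3.61, the ATF3 KO arrays lay below all WT arrays, and the difference was −0.24 (SE 0.12, 95% interval −0.51 to 0.03, limma adjusted p = 0.236). Hk3, a hexokinase enriched in myeloid cells, had levels of 7.05, 7.19, 6.85 and 6.96 in WT replicates 1 to 4 and 7.20, 6.76, 7.07 and 6.36 in ATF3 KO replicates 1 to 4. Both the highest and the lowest of its 8 values were ATF3 KO arrays, replicates 1 and 4, and the difference was −0.16 (SE 0.18, 95% interval −0.57 to 0.24, limma adjusted p = 0.558). Gpi1, the isomerase that follows, had WT and ATF3 KO means of 9.48 ± 0.05 and 9.54 ± 0.10 (SD, n = 4) and a difference of 0.05 (SE 0.09, 95% interval −0.15 to 0.26, limma adjusted p = 0.704), which turned to −0.02 with median scaling or quantile normalization, −0.08 with normexp and −0.07 in the deposited table.

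**Figure D2:**
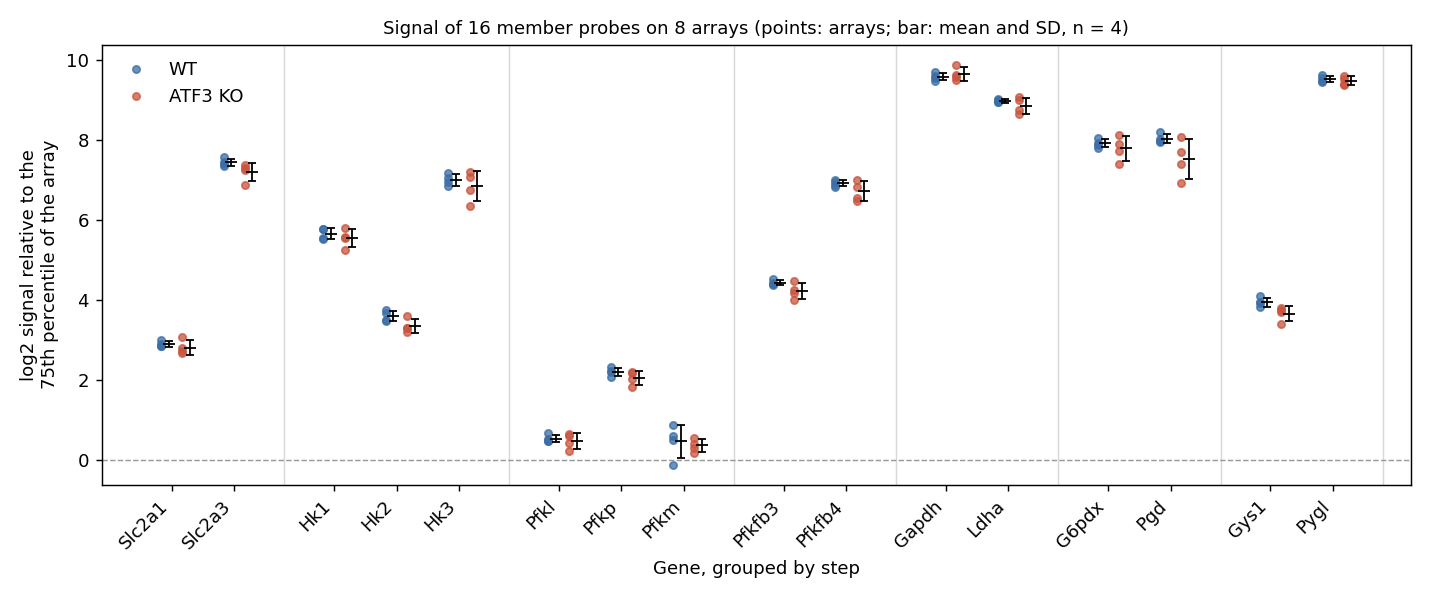
Level (log2 signal relative to the 75th percentile of the array) of 16 member probes on the 8 arrays, WT in blue and ATF3 KO in red, with the mean and SD of each group (n = 4). Only for Gys1 among those drawn do the 4 ATF3 KO points all lie below the 4 WT points, and in most genes the ATF3 KO points are spread wider.

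Phosphofructokinase sets the pace of glycolysis and exists in liver (Pfkl), platelet (Pfkp) and muscle (Pfkm) types, while Pfkfb3 and Pfkfb4 make the sugar bisphosphate that activates it. All 5 genes were detected on 8 arrays, all 5 had differences below 0 and none passed the test, with a median of −0.15 and adjusted p from 0.288 to 0.744. Pfkl levels were 0.51, 0.66, 0.47 and 0.47 in WT replicates 1 to 4 and 0.64, 0.43, 0.59 and 0.22 in ATF3 KO replicates 1 to 4. The groups overlapped, and the difference was −0.06 (SE 0.12, 95% interval −0.32 to 0.20, limma adjusted p = 0.744). Pfkp levels were 2.08, 2.21, 2.18 and 2.32 in WT replicates 1 to 4 and 2.17, 2.02, 2.19 and 1.82 in ATF3 KO replicates 1 to 4. Here too the groups overlapped, with ATF3 KO replicate 4 lowest, and the difference was −0.15 (SE 0.11, 95% interval −0.40 to 0.11, limma adjusted p = 0.407).

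Pfkm, measured with 10 spots per array, differed from the other members in spread. Its levels were 0.87, 0.59, 0.50 and −0.13 in WT replicates 1 to 4 and 0.54, 0.40, 0.30 and 0.18 in ATF3 KO replicates 1 to 4. The highest and the lowest value were both WT arrays, replicates 1 and 4, so its SD was larger in WT (0.42) than in ATF3 KO (0.15), and the difference was −0.10 (SE 0.20, 95% interval −0.54 to 0.34, limma adjusted p = 0.737). A further Pfkp probe was above background on 2 WT arrays and 1 ATF3 KO array and was not tested.

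Pfkfb3 levels were 4.41, 4.52, 4.37 and 4.42 in WT replicates 1 to 4 and 4.26, 4.17, 4.47 and 3.99 in ATF3 KO replicates 1 to 4. ATF3 KO replicate 3 lay among the WT arrays and the other ATF3 KO arrays below them, and the difference was −0.20 (SE 0.12, 95% interval −0.46 to 0.06, limma adjusted p = 0.288). Pfkfb4 levels were 6.88, 7.004, 6.84 and 6.96 in WT replicates 1 to 4 and 6.84, 6.55, 7.02 and 6.47 in ATF3 KO replicates 1 to 4. ATF3 KO replicate 3 was the highest array of all and replicates 2 and 4 were the lowest, and the difference was −0.20 (SE 0.13, 95% interval −0.50 to 0.10, limma adjusted p = 0.341). Both genes thus had overlapping groups.

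From aldolase to lactate export, 9 genes were measured and none passed, with a median difference of −0.16 and a range from −0.29 to 0.06. Pgam1, phosphoglycerate mutase, which moves the phosphate group late in glycolysis, had levels of 7.43, 7.62, 7.44 and 7.43 in WT replicates 1 to 4 and 7.38, 7.22, 7.29 and 6.90 in ATF3 KO replicates 1 to 4. Every ATF3 KO array lay below every WT array, and the difference was −0.29 (SE 0.12, 95% interval −0.56 to −0.01, limma adjusted p = 0.196). With ATF3 KO replicate 4 left out it was −0.19. Its neighbours in the pathway had overlapping groups: the differences were −0.27 for Pgk1, the kinase that yields the first ATP, −0.26 for the triose phosphate isomerase Tpi1, −0.18 for the enolase Eno1, −0.16 for the pyruvate kinase Pkm and −0.04 for the aldolase Aldoa. Their adjusted p lay between 0.231 and 0.837.

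Ldha, lactate dehydrogenase A, which turns pyruvate into lactate, had levels of 8.95, 9.03, 8.95 and 9.01 in WT replicates 1 to 4 and 8.999, 8.75, 9.08 and 8.65 in ATF3 KO replicates 1 to 4. ATF3 KO replicates 1 and 3 lay among or above the WT arrays and replicates 2 and 4 below them, and the difference was −0.12 (SE 0.11, 95% interval −0.37 to 0.14, limma adjusted p = 0.512). Its values are given in full because its promoter window above holds the full ATF/CREB letters. Slc16a3, the lactate exporter MCT4, differed by 0.04, which turned to −0.04 with median scaling and −0.09 with normexp.

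Gapdh, the dehydrogenase often used as a reference gene, had 7 probes, more than any other member. The brightest, which stands for the gene in the test, had levels of 9.49, 9.57, 9.62 and 9.71 in WT replicates 1 to 4 and 9.63, 9.51, 9.89 and 9.59 in ATF3 KO replicates 1 to 4. The groups overlapped, and its difference was 0.06 (SE 0.11, 95% interval −0.19 to 0.31, limma adjusted p = 0.737). The other 6 probes gave differences from −0.20 to −0.12, with adjusted p from 0.496 to 0.672 when every probe was tested, so the probes of Gapdh disagreed in sign, and the mean of the probes gave −0.12. Gapdh has many processed pseudogenes, and the files do not say which copies each probe can bind, so its values are uncertain. The sign of the brightest probe also turned with median scaling (−0.02), quantile normalization (−0.05), normexp (−0.03) and in the deposited table (−0.035).

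**Figure D3:**
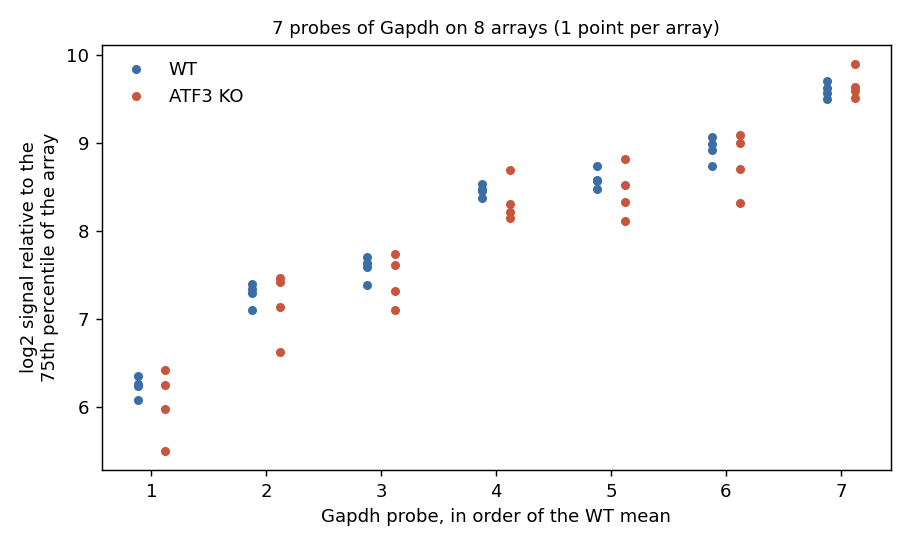
Level (log2 signal relative to the 75th percentile of the array) of the 7 Gapdh probes on each array, in order of their WT mean, WT in blue and ATF3 KO in red. The lowest point is an ATF3 KO array for 6 of the probes, and the groups overlap for all 7.

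The pentose phosphate pathway had 7 members, of which 6 had differences below 0 and none passed the test (median −0.15). G6pdx, the enzyme that commits glucose phosphate to the pathway, had levels of 7.93, 8.06, 7.81 and 7.89 in WT replicates 1 to 4 and 7.92, 7.73, 8.13 and 7.41 in ATF3 KO replicates 1 to 4. The ATF3 KO arrays held both the highest value, replicate 3, and the lowest, replicate 4, and the difference was −0.13 (SE 0.15, 95% interval −0.47 to 0.21, limma adjusted p = 0.579). Without ATF3 KO replicate 4 it was −0.0013. Pgd, the dehydrogenase that makes the other NADPH of the pathway, had levels of 8.03, 8.20, 7.98 and 7.95 in WT replicates 1 to 4 and 6.92, 7.72, 8.08 and 7.41 in ATF3 KO replicates 1 to 4. ATF3 KO replicate 1 was the lowest at 6.92, replicate 3 lay among the WT arrays, and the difference of −0.51 (SE 0.22, 95% interval −0.998 to −0.02, limma adjusted p = 0.196) was the largest of the 31. Without ATF3 KO replicate 1 the difference of Pgd was −0.31, so that array carried much of it.

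The lactonase gene Pgls (−0.16) and the non-oxidative enzymes Rpia (−0.15), Rpe (−0.15), Tkt (−0.08) and Taldo1 (0.08) had overlapping groups and adjusted p from 0.314 to 0.634. Transaldolase (Taldo1) was the 1 member of the pathway with a difference above 0, and that sign turned with quantile normalization (−0.13), normexp (−0.01) and in the deposited table (−0.095).

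The 4 glycogen genes had the lowest median of the 5 role groups, −0.24, which is −0.13 relative to all genes, and none passed the test. Gys1, the glycogen synthase of tissues other than liver, had levels of 3.91, 4.09, 3.83 and 3.94 in WT replicates 1 to 4 and 3.81, 3.70, 3.74 and 3.39 in ATF3 KO replicates 1 to 4. Every ATF3 KO array lay below every WT array, and the difference was −0.29 (SE 0.12, 95% interval −0.55 to −0.02, limma adjusted p = 0.188), the smallest p among the 31. A further probe of Gys1 gave −0.31, with overlapping groups. Without ATF3 KO replicate 4 the difference of Gys1 was −0.20. Ugp2, which makes the activated glucose for glycogen, differed by −0.26 and the branching enzyme gene Gbe1 by −0.23, with adjusted p of 0.233 and 0.263. A further probe of Ugp2 gave −0.28, with every ATF3 KO array below every WT array (limma unadjusted p = 0.0287, adjusted p = 0.188 when every probe was tested). Pygl, the phosphorylase that breaks glycogen down, had means of 9.53 ± 0.08 on WT arrays and 9.49 ± 0.11 on ATF3 KO arrays (SD, n = 4), with a difference of −0.04 (SE 0.10, 95% interval −0.27 to 0.18, limma adjusted p = 0.775).

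Whether the isoforms of a step kept their balance was looked at through the log2 ratio of their probes within each array, a value that scaling a whole array does not alter. This comparison was added after the values had been seen, and it covered 8 pairs with two-sided exact permutation tests over the 8 arrays, which cannot go below p = 0.0286. No pair passed after Benjamini-Hochberg adjustment over the 8 with the reported settings. However, 1 pair alone at that smallest exact permutation p would have an adjusted p of 0.229, so a single pair could not pass. The lack of a call therefore does not show that the balance was kept. The Hk1 to Hk2 ratio averaged 2.07 ± 0.03 on WT arrays and 2.20 ± 0.10 on ATF3 KO arrays (SD, n = 4; difference 0.13, SE 0.05, exact permutation p = 0.0857, adjusted p = 0.457). It rested on the brighter Hk1 probe, and with the mean of a gene's probes the difference was 0.028 (exact permutation p = 0.743). The Slc2a1 to Slc2a3 ratio averaged −4.55 ± 0.04 on WT arrays and −4.40 ± 0.16 on ATF3 KO arrays (SD, n = 4; difference 0.16, SE 0.08, exact permutation p = 0.114, adjusted p = 0.457). The Hk1 to Hk2 ratio was above every WT array in ATF3 KO replicates 1 to 3 and the Slc2a1 to Slc2a3 ratio in replicates 3 and 4, and both overlapped between groups. The Slc2a1 to Slc2a3 difference was larger in other settings, at 0.39 in the deposited table, 0.34 with normexp and 0.23 with quantile normalization, each with the smallest exact permutation p the design allows (0.0286) and adjusted p from 0.114 to 0.229. With 1 array left out it ran from 0.094, without ATF3 KO replicate 4, to 0.20, without ATF3 KO replicate 2.

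The Hk1 to Hk3 and Hk2 to Hk3 ratios differed by 0.05 (SE 0.12) and −0.08 (SE 0.15), and ATF3 KO replicate 1, where Hk3 was high, had the lowest value of both. Differences between the phosphofructokinase types were 0.09 (SE 0.07) for Pfkl to Pfkp, 0.04 (SE 0.21) for Pfkl to Pfkm and −0.04 (SE 0.27) for Pfkp to Pfkm. The Pfkfb3 to Pfkfb4 ratio differed by −0.0017 (SE 0.05), with group means of −2.49 and −2.49. Exact permutation p for these 6 pairs lay between 0.371 and 0.943, and a ratio shows unequal change only.

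The members varied more among the ATF3 KO arrays than among the WT arrays. The SD over 4 arrays was larger in ATF3 KO for 30 of the 31 genes, Pfkm being the exception, with a median SD of 0.20 against 0.10 on the log2 scale. The same held for 72.9% of all genes, whose median SD was 0.21 in ATF3 KO and 0.14 in WT. ATF3 KO replicate 4 was the lowest of the 8 arrays for 25 members and for 32.2% of all genes. That share includes 9842 genes with a level below 0, where 0 members lie and where the median deviation of replicate 4 was 0.14. It is thus not a share at like levels. The highest array was WT replicate 2 for 16 members and ATF3 KO replicate 3 for 11, against 21.4% and 11.6% of all genes. These counts were not tested, since the 31 genes share the same 8 arrays.

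**Figure D4:**
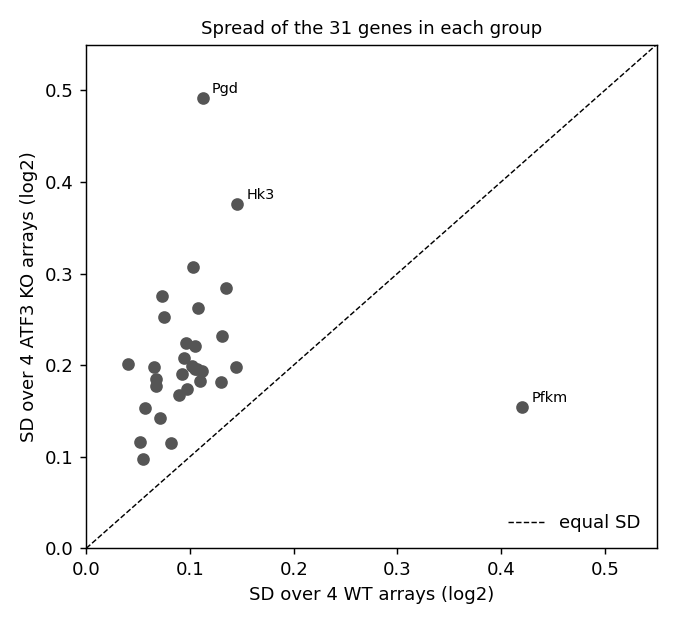
SD of the level over the 4 WT arrays (x axis) and over the 4 ATF3 KO arrays (y axis) for each of the 31 genes, on the log2 scale. All points but Pfkm lie above the dashed line of equal SD.

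Expressed as the deviation of each gene from its own mean over the 8 arrays, the members had a median of 0.08, 0.18, −0.00 and 0.06 in WT replicates 1 to 4 and of 0.01, −0.12, 0.14 and −0.33 in ATF3 KO replicates 1 to 4. The corresponding medians of all genes were 0.05, 0.08, 0.02 and 0.06 and then −0.01, −0.10, 0.02 and −0.08. ATF3 KO replicate 4 was thus at −0.25 relative to all genes and ATF3 KO replicate 3 at 0.13, and each of the 5 role groups showed this, with medians from −0.39 to −0.28 in replicate 4 and from 0.08 to 0.17 in replicate 3. All genes here include 9842 with a level below 0, where 0 members lie. Their median deviation in ATF3 KO replicate 4 was 0.14, so the −0.25 partly reflects level, and deviations at like levels are given below. ATF3 KO replicate 4 also had the lowest 75th percentile (113) and, of the 8 arrays, the highest median deviation of the B-lineage (0.53), megakaryocyte (0.88), T and NK (0.35) and also the neutrophil markers (0.27). Its median deviation was below 0 for the monocyte and macrophage (−0.14) and erythroid markers (−0.10). The part of all these cells in the members' values was not tested. Without that array 25 of 31 differences were below 0, the median of the members was −0.06 and that of all genes −0.08, so the members were at 0.02 relative to all genes, and 0 members were lower at an unadjusted p under 0.05, where 10.9% of all genes were. The SD was then larger in ATF3 KO for 25 of 31 members and 62.6% of all genes. Without ATF3 KO replicate 3, by contrast, 29 differences were below 0, 10 members were lower at an unadjusted p under 0.05, where 20.8% of all genes were in that fit, and 11 had all ATF3 KO arrays below the WT arrays, where 20.9% did, but again 0 passed over all genes.

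**Figure D5:**
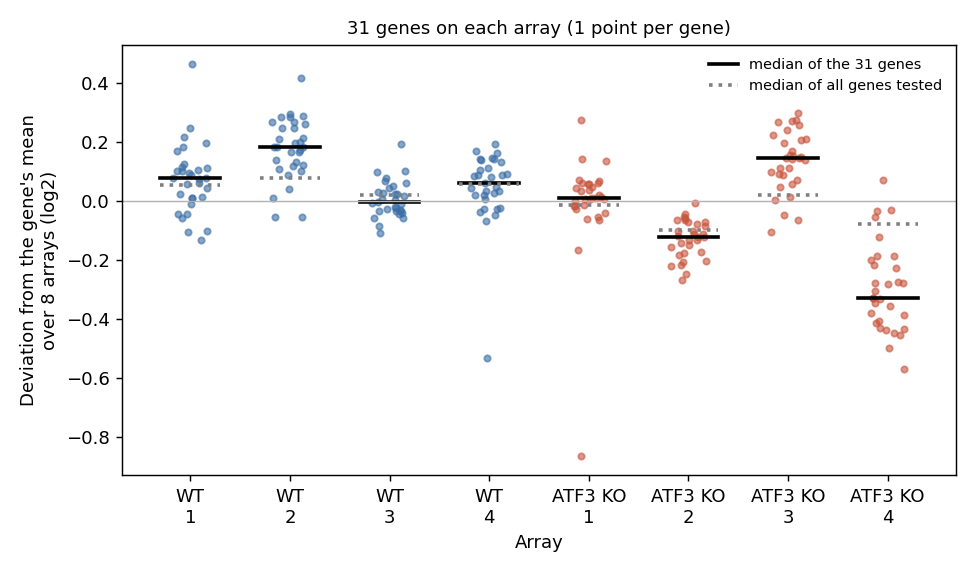
Deviation of each of the 31 genes (points) from its own mean over the 8 arrays, by array, on the log2 scale, with the median of the 31 genes (black line) and of all genes tested (dotted grey line). The members sit at a median of −0.33 in ATF3 KO replicate 4 and 0.14 in ATF3 KO replicate 3, and the lowest point in ATF3 KO replicate 1 is Pgd.

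Differences over all genes also varied with the level of the signal. Among genes with a mean level from 4 to 6 the median difference was −0.17 over 2233 genes and −0.23 over the 5 members there, and from 6 to 8 it was −0.13 over 1111 genes and −0.20 over 9 members. Above 8 it was −0.00 over 389 genes and −0.04 over 8 members, namely Gpi1, Aldoa, Gapdh, Pkm, Ldha, Tkt, Taldo1 and Pygl, and between 2 and 4 it was −0.18 over 3347 genes and −0.15 over 7 members. From 0 to 2 it was −0.14 over 4329 genes and −0.08 over 2 members, and below 0 it was 0.003 over 9842 genes, with 0 members there. In the 9 members with a level from 6 to 8, the median deviation of ATF3 KO replicate 4 was −0.44, against −0.21 for all genes of that level. This was the widest gap among the levels. The deviation was −0.36 against −0.26 from 4 to 6 and −0.28 against −0.22 from 2 to 4. Above 8 it was −0.16 against −0.06, and from 0 to 2 it was −0.25 against −0.12.

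Further probes, which could be tested for 10 genes, mostly gave the same sign. Among the 48 probes kept, 42 differences were below 0, as were 65.0% of those of all probes tested, and ATF3 KO replicate 4 was the lowest array for 40. Of the 48, 5 had an unadjusted p under 0.05 and 3 had non-overlapping groups, all lower in ATF3 KO, and 0 passed when every probe was tested. The 5 were a smaller share than that of all probes tested, given in the last section. Counted by gene, 10.9% of all genes had non-overlapping groups lower in ATF3 KO. The further Tpi1 probe gave −0.40 beside −0.26, the further Hk1 probe −0.32 beside −0.12, and the further Pfkfb4 probe −0.39 beside −0.20, none called. Apart from Gapdh, only the Gpi1 probes differed in sign (−0.03 to 0.05).

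Other genes of these pathways, taken from 6 lists, gave 1 call among 69 genes tested, and 23 of the 69 were lower at an unadjusted p under 0.05, against 14.5% of all genes. Of 16 other glycolysis isoforms and sugar or lactate transporters tested (24 listed), 0 passed and 3 were lower at an unadjusted p under 0.05, among them the urate and sugar transporter gene Slc2a9 (−0.39, SE 0.12) and the aldolase gene Aldoc (−0.49, SE 0.15). Of 14 other glycogen genes tested (20 listed), 0 passed and 4 were lower at that level, with the phosphorylase gene Pygb at −0.44 and the lysosomal glucosidase gene Gaa at −0.36. Hkdc1, Pgk2, Gapdhs, Slc2a2, Slc2a5, Gys2, Ppp1r3c and Stbd1 were above background on no array.

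Among 11 other pentose phosphate and NADPH genes tested (14 listed), 1 passed and 5 were lower at an unadjusted p under 0.05. The 1 was Me1, the cytosolic malic enzyme, a further source of NADPH, which fell by 0.84 (SE 0.14, limma adjusted p = 0.0494), from −2.24 ± 0.09 on WT arrays to −3.08 ± 0.28 in ATF3 KO (SD, n = 4), where 2 of 4 arrays were above background, so its size rests partly on signal at background. The call ended when any array but ATF3 KO replicate 3 was left out, with adjusted p from 0.0677 to 0.139, normexp gave −0.15 (adjusted p = 0.261), and over all settings the adjusted p ran from 0.0233 to 0.261. H6pd, the dehydrogenase of the endoplasmic reticulum, differed by −0.30 (adjusted p = 0.153). In the branch from pyruvate to the mitochondrion 6 of 12 tested genes (13 listed) were lower at an unadjusted p under 0.05 and 0 passed, with Dlat at −0.38 and the kinase gene Pdk2 at −0.30. The median of that list was −0.26, or −0.15 relative to all genes.

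Of 6 genes of glucose formation tested (8 listed) 2 were lower at that level, the transporter gene Slc37a4 (−0.28) and Fbp1 (−0.27), and 0 passed. Of 10 genes around the hypoxia-inducible factor, 3 were lower, among them the oxygen sensor gene Egln3 (−0.33) and Vhl (−0.28), and 0 passed.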

How the data were processed

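Cy3-labelled RNA of each of the 8 samples was measured on a single-colour Agilent array, per the labels. The authors' deposited scanner tables give the processed signal intensity of each spot, background-subtracted by Feature Extraction 10.9.1.1, per the file headers (10.10 in the submitters' processing notes). The deposited log2 table, used as an alternative, had column medians of 6.15 to 6.16 and correlated with each array at 0.998 or more, and how it was centred is not given in the sources used here. Here, spots marked as outliers (98 to 159 per array) were dropped, spots of a probe averaged, and log2 signals set relative to the 75th percentile over 55681 probes. The probe with the highest mean stood for a gene. Genes were named from transcript accessions through RefSeq (GRCm38.p6), which matched 27235 probes. limma 3.58.1 in R 4.3.3 (lmFit, eBayes) tested 21251 genes with Benjamini-Hochberg adjustment, and a call is an adjusted p under 0.05. The fit was tested on simulated data, where it recovered 32% of changes of 1.5-fold, 54% of 2-fold, 88% of 4-fold and 100% of 8-fold. Of its 151 calls there, 14 were false. A change of the size seen in the members would thus often go uncalled. The simulated noise was drawn separately for each gene and array, with the same SD in both groups. In the data most genes had a larger SD in ATF3 KO and arrays shifted many genes together, so these shares are a rough guide. With 4 arrays a group, their number limits precision. Alternatives covered the background correction (normexp), the scaling (quantile, median, percentile over detected probes), the filter, every probe or the mean of probes, trended and robust variances, array weights, a replicate block, the deposited table and leaving out each array. Normexp used the median signals. The members, the lists and the rule for named genes (all members by count, every array for members with an unadjusted p under 0.05, isoform families, Gapdh and G6pdx, and up to 2 genes of smallest unadjusted p per other list) were chosen with earlier results of these data known. Ldha in full, the isoform ratios, probe-by-probe values and counts by level were added after seeing the data.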

Additional observations from a re-analysis of the deposited data

Results flagged for a closer look

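Pgam1 in WT was the 1 of 62 member and group combinations in which the gap of 1 array to the nearest other exceeded Dixon's 95% critical value for 4 samples: WT replicate 2, at 7.62, was separated from the rest (7.43 to 7.44) by 0.950 of the group's range. Chance alone gives this in about 1 in 20 groups. Without WT replicate 2 the difference of Pgam1 was −0.24, against −0.29 with it.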

How the results depend on the processing

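No member was called under any of the 20 alternatives, nor at an adjusted p under 0.1 with the reported settings, and the lowest adjusted p under any alternative was 0.0734 (Pgd without ATF3 KO replicate 3). Of 620 member values, 583 kept their sign and 37 reversed, and 15 of 31 members never reversed. The median relative to all genes moved by less than the replicate SD of 0.153 throughout. That SD is larger than the value itself, −0.05, so this does not show that it was stable. The medians of the members and of all genes were −0.21 and −0.05 with normexp and −0.15 and −0.02 with no filter. Without ATF3 KO replicate 4 they were −0.06 and −0.08, which turned the sign of the relative median. Each count below is followed by the share of all genes tested at the same cut in the same setting. The count of 3 members lower at an unadjusted p under 0.05 (14.5% of all genes) became 11 with normexp (19.3%), 7 in the deposited table (11.4%), 6 with trended and robust variances (16.9%), 5 with array weights (19.0%) or the mean of probes (14.4%), 1 with median scaling (9.37%) or quantile normalization (11.4%), and 0 with no filter (6.69%) or the percentile over detected probes (4.27%). With every probe tested the unit was the probe, and 5 of 48 member probes were lower (13.7% of all probes tested). The count of members was 0 to 10 when 1 array was left out, 10 without the third ATF3 KO array (20.8%) and 0 without the fourth (10.9%), WT replicate 1 (9.27%) or WT replicate 2 (7.51%). The 2 members with all ATF3 KO arrays below the WT arrays (10.9%) became 5 with normexp (10.6%) or the deposited table (7.29%), 0 with median scaling (3.45%) or the percentile over detected probes (3.76%), and 2 to 11 with 1 array left out, 11 when this was ATF3 KO replicate 3 (20.9%) and 4 when WT replicate 3 (17.4%). With the percentile over detected probes 4 members were higher at an unadjusted p under 0.05 (14.3%) and 3 had all ATF3 KO arrays above the WT arrays (6.87%).

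The replicate numbers did not pair the samples (correlations of same-numbered deviations of 0.19, −0.13, −0.27 and 0.18), and a fit with a replicate block left 1 member lower at an unadjusted p under 0.05 (10.2% of all genes).

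Signs reversed as follows, and the cause was not tested. With the percentile over detected probes the differences were 0.11 for Aldoa, 0.021 for G6pdx, 0.035 for Hk1, 0.036 for Ldha, 0.092 for Pfkl, 0.048 for Pfkm, 0.0054 for Pfkp, 0.11 for Pygl, 0.0030 for Rpia, 0.065 for Slc2a1 and 0.076 for Tkt. In the deposited table they were −0.035 for Gapdh, −0.072 for Gpi1, 0.010 for Hk1, 0.035 for Pfkl, 0.043 for Pgls, 0.035 for Rpia, 0.16 for Slc2a1 and −0.095 for Taldo1. Median scaling gave −0.017 for Gapdh, −0.021 for Gpi1 and −0.039 for Slc16a3. Normexp gave −0.027 for Gapdh, −0.082 for Gpi1, −0.094 for Slc16a3 and −0.0069 for Taldo1. Quantile normalization gave −0.049 for Gapdh, −0.024 for Gpi1, 0.017 for Hk1, 0.066 for Slc2a1 and −0.13 for Taldo1, and the mean of probes −0.12 for Gapdh. With 1 array left out, the range was −0.12 to 0.023 for Aldoa, −0.021 to 0.11 for Gapdh, −0.12 to 0.023 for Pfkl, −0.30 to 0.033 for Pfkm and −0.049 to 0.11 for Slc16a3. Among the ratios, whose alternatives were chosen after seeing the data, Slc2a1 to Slc2a3 kept its sign but was 0.23 to 0.39 in place of 0.16 with quantile normalization, normexp and the deposited table, Pfkl to Pfkp was 0.18 with normexp (exact permutation p = 0.0286, adjusted p = 0.114), and Hk1 to Hk3 was −0.054 with the mean of probes. Hk1 to Hk2 kept its sign but was 0.028 in place of 0.13 with the mean of probes. Pfkfb3 to Pfkfb4 was 0.087 in the deposited table, 0.13 with the mean of probes, 0.058 with normexp and 0.042 with quantile normalization, and Pfkp to Pfkm was 0.054 in the deposited table and 0.029 with quantile normalization. With 1 array left out the ratios differed by −0.017 to 0.15 for Hk1 to Hk3, −0.19 to 0.051 for Hk2 to Hk3, −0.041 to 0.026 for Pfkfb3 to Pfkfb4, −0.098 to 0.22 for Pfkl to Pfkm and −0.22 to 0.19 for Pfkp to Pfkm. The Slc2a1 to Slc2a3 difference was then 0.094 to 0.20. All member probes that were tested were above background on 8 arrays, and the background correction still moved their values, as with normexp above.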
